A study of Rattus norvegicus with 2 samples.

Results

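The 10 genes described here encode matrix metalloproteinases (Mmp2, Mmp3, Mmp9, Mmp10, Mmp12, Mmp13, Mmp14 and Mmp15) and tissue inhibitors of metalloproteinases (Timp1 and Timp2) of the rat. They were chosen by gene family with the differences between these arrays already known, and are 10 of the 15159 named genes that had a probe on the array. Their own differences are therefore a description, with no test. The cells were RMT-1 clone E4, a rat mammary tumour line, and 2 one-colour arrays were hybridised. The first carried RNA of cells transiently transfected with siRNA against Pla2g4c, which encodes an enzyme of the cytosolic phospholipase A2 kind, and the second RNA of cells given a negative control siRNA. Both groups were transfected and kept in the same serum-containing medium, both come from a single clone, and the siRNA dose and the time of harvest are not given in the sources used here. The targeted gene could not be checked, because 0 probes matched Pla2g4c.

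Each value below is a relative signal, the processed signal of a spot divided by the 75th percentile of its array, so that 1 is the 75th percentile. That percentile was 1105 in Pla2g4c siRNA cells and 852 in control siRNA cells, 0 gene spots were saturated, and 63.1% of gene spots in Pla2g4c siRNA cells and 61.9% in control siRNA cells were well above background. A difference is the log2 level in Pla2g4c siRNA cells minus that in control siRNA cells, followed after ± by the technical error that the scanner software estimates for both signals. The median of this error over all genes was 0.20, and it does not cover differences between cultures. It was averaged over the spots of a probe, so more spots do not lower it. For bright genes it was nearly constant, at 0.204 for Timp1 with 10 spots and 0.204 for Timp2 with 2. Each group had 1 array, so no difference has a replicate check or a test across samples, and a gene counted as higher or lower only past 2-fold. A level on both arrays, with every spot well above background, was obtained for 9026 named genes. Their median difference was -0.01. Signals of different probes are not compared with each other, since each probe binds its target with its own strength.

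Matrix metalloproteinases are zinc-dependent endopeptidases that cut collagens, laminins, fibronectin and other parts of the extracellular matrix, and also free growth factors and cytokines bound to it. Most are made as inactive proenzymes, are secreted, and become active when the propeptide is removed, while the membrane-type members stay anchored at the cell surface. The tissue inhibitors bind the active site and block it. In the mammary gland these enzymes take part in branching and in the remodelling that follows lactation, and in tumours they act on the basement membrane and the stroma. Several genes of the family, among them those for collagenases and stromelysins, are known to be switched on by inflammatory cytokines through AP-1 sites in their promoters.

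The promoter sequences show how the members differ before any level is considered. RefSeq sequence of assembly GRCr8 was found for 7 of the 10 genes, and none was found for Mmp2, Mmp9 and Mmp14. In the 250 bases before the annotated start, the AP-1 letters TGANTCA, searched on both strands, were present in 4 of the 7, namely Mmp13, Mmp12, Mmp3 and Mmp10. The TATA box letters TATAAA, searched likewise, were in the same 4 genes. Neither was in this window of Mmp15, Timp1 or Timp2. Of all 33469 rat promoters in the table, 6.34% held the AP-1 letters and 12.9% the TATA letters in a window of this length. The 4 genes lie in the same cluster on chromosome 8 and belong to 1 family, so their sequences are not independent of each other.

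The last 100 bases before the start are shown for the 4 genes with both motifs and, as a contrast, for Timp1, each 5′ to 3′ on the strand of the gene, with the AP-1 and TATA letters in capitals. The windows are chr8:12782729-12782828 for Mmp13, chr8:12866552-12866651 for Mmp12, chr8:12925181-12925280 for Mmp3 and chr8:12974607-12974706 for Mmp10, all on the plus strand, and chrX:3771123-3771222 on the minus strand for Timp1 (GRCr8).
Mmp13: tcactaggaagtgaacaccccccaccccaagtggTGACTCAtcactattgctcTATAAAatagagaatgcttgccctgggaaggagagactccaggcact
Mmp12: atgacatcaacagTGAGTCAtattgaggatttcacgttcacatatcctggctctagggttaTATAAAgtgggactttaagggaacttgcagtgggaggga
Mmp3: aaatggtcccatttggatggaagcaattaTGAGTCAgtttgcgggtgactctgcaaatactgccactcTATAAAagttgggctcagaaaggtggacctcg
Mmp10: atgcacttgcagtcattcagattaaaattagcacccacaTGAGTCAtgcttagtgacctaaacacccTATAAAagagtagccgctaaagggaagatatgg
Timp1: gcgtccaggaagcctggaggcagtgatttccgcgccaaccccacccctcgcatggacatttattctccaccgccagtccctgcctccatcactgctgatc
The AP-1 letters began 66 bases before the start in Mmp13, 87 in Mmp12, 71 in Mmp3 and 61 in Mmp10, and the nearest TATA letters 47, 39, 32 and 33 bases before it in the same order. The AP-1 and TATA letters did not overlap. The letters AGGAAG, bound by PEA3 factors of the Ets family, were in the 250 bases of 3 members: Mmp13 at 95 bases before the start, Mmp3 at 206, and Timp1 at 230 and 94. Of all promoters 29.5% held them. The Runx letters AACCACA were found in 1 member, Mmp13, at 150 bases, and in 4.59% of all promoters. A match of letters is a description of the sequence and does not show that a factor binds there.

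**Figure D1:**
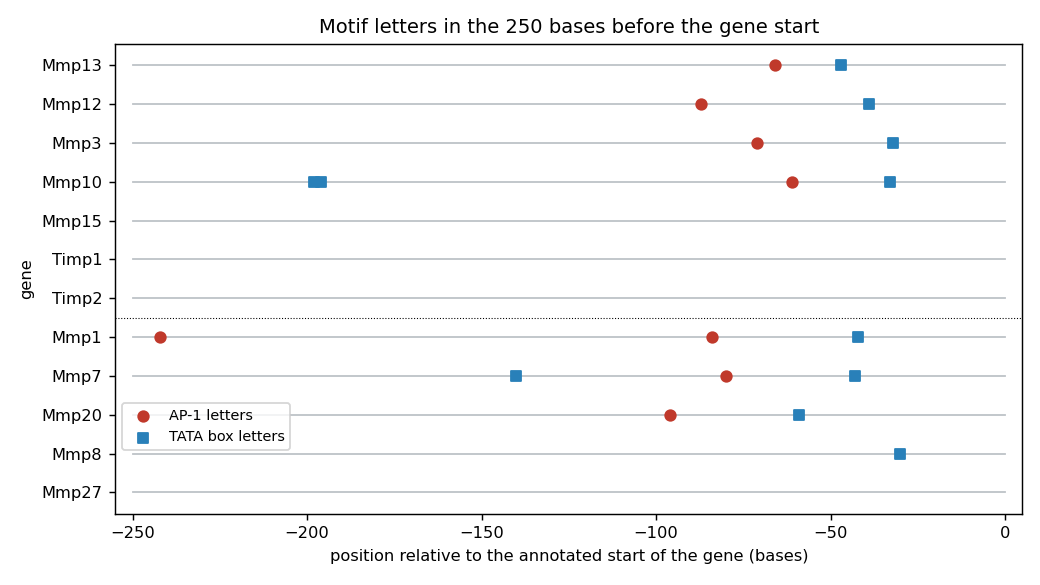
Positions of the AP-1 letters (red circles) and TATA box letters (blue squares) in the 250 bases before the annotated start of 7 members (above the dotted line) and 5 neighbouring metalloproteinase genes on chromosome 8 (below it); the horizontal axis is the position in bases relative to the start. Mmp13, Mmp12, Mmp3 and Mmp10 carry both sets of letters within 100 bases of the start, and Mmp15, Timp1 and Timp2 carry neither.

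Of the gelatinases, Mmp9 was far brighter in Pla2g4c siRNA cells, and Mmp2 was not. Mmp9 encodes gelatinase B, which cuts denatured collagen and the type IV collagen of basement membranes. Its probe was printed in 10 spots. Their relative signal was lowest at 3.38, with a median of 3.57 and a highest value of 3.71, in Pla2g4c siRNA cells, against 0.237, 0.250 and 0.264 in control siRNA cells. The spots of the 2 arrays were widely separated and the spots within an array lay close together. Spots of 1 array are technical repeats. Of the 729 probes with 10 usable spots, 30.6% had all Pla2g4c siRNA spots above all control spots and 27.2% all below. Mmp9 differed by 3.83 ± 0.20 (software error, 1 array per group), or 14.2-fold, and ranked 4 of 9026 among all differences from the highest down. Each spot position gave a difference between 3.72 and 3.95.

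Mmp2, which encodes gelatinase A, was measured by 2 probes of 1 spot each. The first probe had a relative signal of 0.236 in Pla2g4c siRNA cells and 0.241 in control siRNA cells, and the second 0.0357 in Pla2g4c siRNA cells and 0.0415 in control siRNA cells. Both were slightly dimmer in Pla2g4c siRNA cells, by less than the software's error (-0.03 ± 0.21 and -0.22 ± 0.26). The gene's mean difference was -0.12 ± 0.23, and its sign turned under spike-in scaling (0.43) and in the authors' deposited values (0.0074). At this precision no difference in Mmp2 was detectable.

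The collagenase Mmp13, which cleaves the intact triple helix of fibrillar collagens and is the main collagenase of rodents, behaved like Mmp9 in size. Its 10 spots ran between 2.26 and 2.76 with a median of 2.63 in Pla2g4c siRNA cells, against 0.185 to 0.210 with a median of 0.198 in control siRNA cells. No spot of 1 array reached the range of the other, which held in this direction for 30.6% of all probes with 10 usable spots. Mmp13 differed by 3.72 ± 0.21, or 13.2-fold, with a rank of 5 of 9026, directly after Mmp9, and spot positions gave differences of 3.61 to 3.85. These were the 2 members past 2-fold higher among the 8 measured on both arrays, and 0 members were at least 2-fold lower. Over all 9026 named genes 263 (2.91%) were past 2-fold higher and 275 (3.05%) past 2-fold lower. Because the members were chosen with these differences known, nothing is read from their share against this background.

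**Figure D2:**
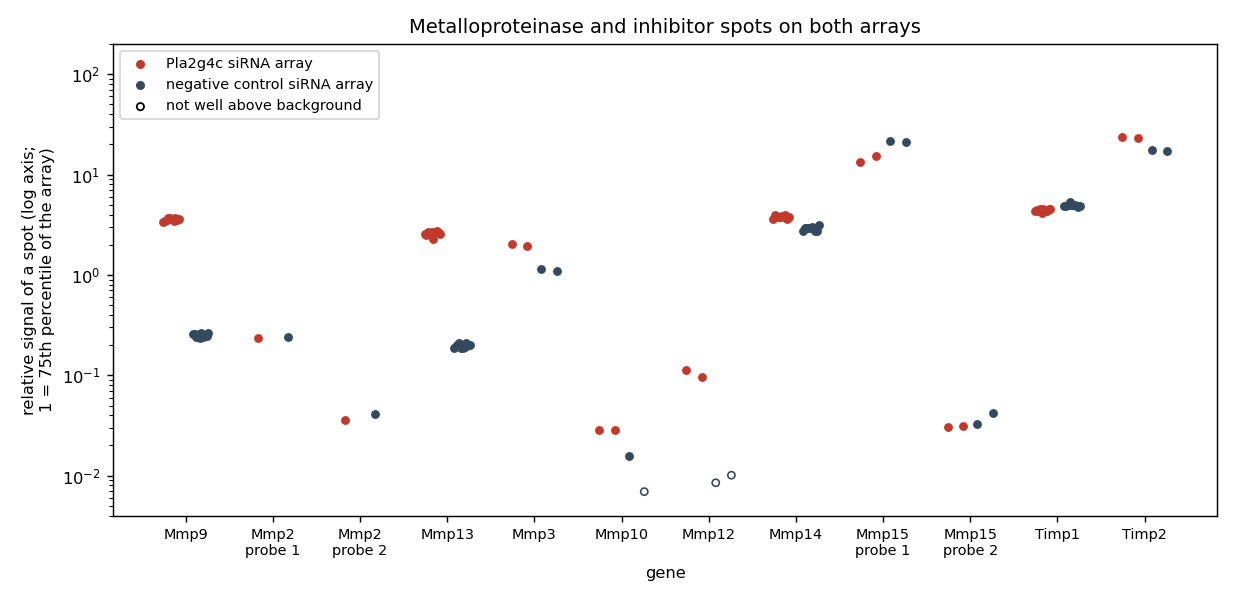
Relative signal of every spot of the 10 genes (vertical log axis; 1 is the 75th percentile of the array) in Pla2g4c siRNA cells (red, left of each pair) and the negative control siRNA array (dark blue, right); open circles are spots not well above background. Mmp9 and Mmp13 spots sit between 2.26 and 3.71 in Pla2g4c siRNA cells and between 0.185 and 0.264 in control siRNA cells, while the Timp1 spots of both arrays lie close together.

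Of the stromelysin and elastase genes, Mmp12 had a bound past 2-fold higher, Mmp3 stayed short of 2-fold and Mmp10 could not be given a fold change. Mmp3, or stromelysin-1, cuts proteoglycans, laminin and fibronectin and activates other proenzymes of the family. Its 2 spots read 1.96 and 2.02 in Pla2g4c siRNA cells, against 1.09 and 1.14 in control siRNA cells. Both spots were higher, and the difference of 0.84 ± 0.20, or 1.78-fold, stayed short of 2-fold. It passed 2-fold under spike-in scaling (1.39).

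Mmp12, or macrophage metalloelastase, which cuts elastin, read 0.0953 and 0.112 in Pla2g4c siRNA cells, against 0.00849 and 0.0101 in control siRNA cells. Neither control spot was well above background, so the control level has only a bound. Mmp12 was at least 7.81-fold higher in Pla2g4c siRNA cells, taking for the control array the lowest signal of any probe well above background there. Of the 231 named genes well above background in Pla2g4c siRNA cells and in no spot in control siRNA cells, 73 (31.6%) had such a bound of 2-fold or more. The bound for Mmp12 lay between 7.78-fold and 11.4-fold under other scalings and fell to 2.07-fold after normexp background correction, which lifts dim spots.

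Mmp10, or stromelysin-2, a close relative of Mmp3, was near the limit of detection. Its 2 spots read 0.0283 and 0.0287 in Pla2g4c siRNA cells, both well above background, against 0.00693 and 0.0156 in control siRNA cells, of which only the brighter was well above background. The spot positions gave differences of 0.86 and 2.05, so that their mean of 1.46 is poorly fixed. No fold change is given for Mmp10. Probe sequences were not among the columns used here, so cross-binding between near-identical family members was not tested.

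The membrane-type enzymes differed little and in opposite directions. Mmp14, the membrane-type enzyme that activates the Mmp2 proenzyme at the cell surface, had 10 spots between 3.57 and 3.93 with a median of 3.82 in Pla2g4c siRNA cells, against 2.74 to 3.15 with a median of 2.95 in control siRNA cells. All Pla2g4c siRNA spots lay above all control spots. Such a separation was common on these arrays. Of the 729 probes with 10 usable spots, 223 (30.6%) had all Pla2g4c siRNA spots above all control spots and 198 (27.2%) all below. Mmp14 differed by 0.38 ± 0.20, or 1.303-fold, and remained above 0 in all 11 processings tried, from 0.37 to 0.93. Those that alter only the rules on spots or probes could not change its value.

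Mmp15, another membrane-type enzyme, had 2 probes. The brighter probe read 13.3 and 15.2 in Pla2g4c siRNA cells, against 21.0 and 21.7 in control siRNA cells, a difference of -0.59 ± 0.20. The dimmer probe read 0.0305 and 0.0316 in Pla2g4c siRNA cells, against 0.0329 and 0.0417 in control siRNA cells, a difference of -0.26 ± 0.26. Both probes were dimmer in Pla2g4c siRNA cells, and their mean difference was -0.42 ± 0.23. Under spike-in scaling its sign turned (0.13).

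Neither inhibitor passed 2-fold. Timp1, a secreted inhibitor that also binds the proenzyme of Mmp9, had 10 spots between 4.17 and 4.55 with a median of 4.40 in Pla2g4c siRNA cells, against 4.74 to 5.36 with a median of 4.92 in control siRNA cells. All Pla2g4c siRNA spots were below all control spots, which held in this direction for 27.2% of the 729 probes with 10 usable spots. Yet the difference was -0.17 ± 0.20, or 1.12-fold lower, which is smaller than the software's error. Under spike-in scaling Timp1 was above 0 (0.38). Timp2, which at low amounts helps Mmp14 to activate proMmp2 and otherwise inhibits both, read 23.3 and 23.9 in Pla2g4c siRNA cells, against 17.2 and 17.6 in control siRNA cells. Both spots were higher, by 0.44 ± 0.20 or 1.35-fold, and the value was 0.64 after quantile normalization and 0.99 under spike-in scaling.

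Since a change of scale shifts all genes of an array together, differences between an enzyme and an inhibitor on the same pair of arrays do not depend on the scaling constant. Relative to Timp1, the difference of Mmp9 was larger by 3.996 ± 0.29 on the log2 scale and that of Mmp13 by 3.89 ± 0.29. Relative to Timp2 they were larger by 3.39 ± 0.29 and 3.28 ± 0.29. These gaps are many times the software's error. Mmp3 stood 1.004 ± 0.29 above Timp1 and 0.40 ± 0.29 above Timp2. The gap between Mmp14 and its partner Timp2 was within the error (-0.05 ± 0.29). Set against Timp2, Mmp2 stood at -0.56 ± 0.31 and Mmp15 at -0.86 ± 0.31. The inhibitors themselves were 0.61 ± 0.29 apart, Timp2 above Timp1.

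The order of the 8 measured differences from the highest down was Mmp9, Mmp13, Mmp3, Timp2, Mmp14, Mmp2, Timp1 and Mmp15. The gap between Mmp9 and Mmp13 was within their errors, and so were the gap between Timp2 and Mmp14 and those among Mmp2, Timp1 and Mmp15. The ranks were 400 for Mmp3, 1235 for Timp2, 1476 for Mmp14, 5596 for Mmp2, 6010 for Timp1 and 7548 for Mmp15 among 9026 genes. Of the 8 members 5 were above 0 and 3 below, with a median of 0.41, against -0.01 for all named genes, of which 49.0% were above 0.

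**Figure D3:**
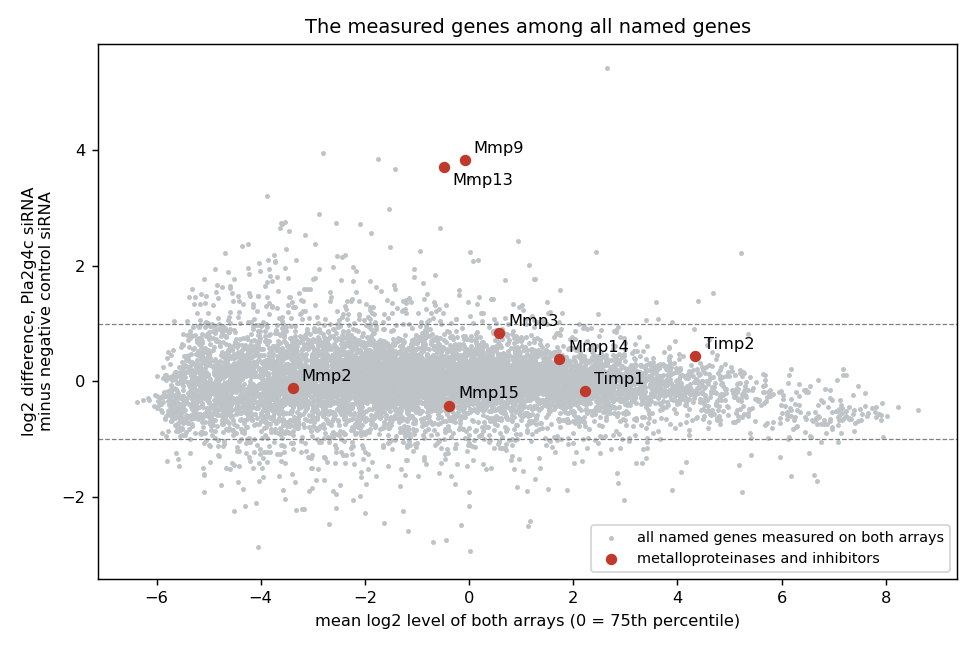
Log2 difference (Pla2g4c siRNA minus negative control siRNA, vertical axis) against the mean log2 level of both arrays (horizontal axis, 0 at the 75th percentile) for 9026 named genes (grey) and the 8 measured members (red); dashed lines mark 2-fold. Mmp9 (3.83) and Mmp13 (3.72) stand at the upper edge of all genes, and the other 6 lie inside the dashed lines.

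**Figure D4:**
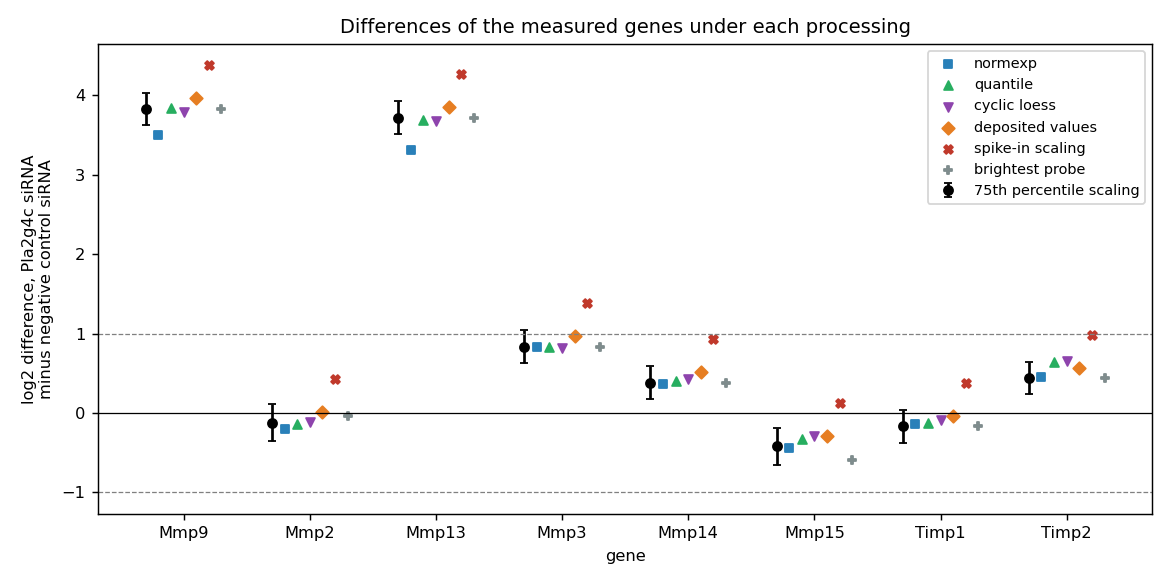
Log2 difference of the 8 measured genes under 7 processings, with 75th percentile scaling in black and its software error as the bar; dashed lines mark 2-fold. Mmp9 (3.50 to 4.38) and Mmp13 (3.31 to 4.27) stay far above 2-fold under each, and Mmp2, Mmp15 and Timp1 lie below 0 under 75th percentile scaling and above it under spike-in scaling, Mmp2 in the deposited values too.

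Spike-in scaling, which sets the arrays level on 7 RNAs added in known amounts, raised the median of all genes to 0.54, against -0.01, and so raised every member by the same amount. Relative to that shift the order of the members stayed as given. Mmp9, Mmp13, Mmp3, Mmp14 and Timp2 were above 0 under each of the 11 processings, while the signs of Mmp2, Mmp15 and Timp1 turned under spike-in scaling and that of Mmp2 in the authors' deposited values too. Not all 11 are separate checks. For a gene with 1 probe, no outlier spot and every spot well above background, the rules on spots and probes cannot change the value. Median scaling, spike-in scaling and the deposited values only shift all genes by a constant.

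Mmp13, Mmp12, Mmp3 and Mmp10 belong to a gene cluster on chromosome 8, so their neighbours were read as well. In the RefSeq order the cluster runs Mmp13, Mmp12, Mmp1b, Mmp3, Mmp1, Mmp10, Mmp8, Mmp27, Mmp20 and Mmp7. Mmp1, an interstitial collagenase, Mmp8, the neutrophil collagenase, Mmp27 and Mmp20, which acts in tooth enamel, were dim on both arrays, with no probe well above background, and no probe was named for Mmp1b. Mmp7, or matrilysin, was well above background in Pla2g4c siRNA cells only (relative signal 0.0179, against 0.00321 in control siRNA cells), at least 1.36-fold higher. Next to Mmp13, Dcun1d5 had a difference of -0.85 ± 0.20, and beyond it Dync2h1 had -1.72 ± 0.24. Beyond Mmp7, the nearest measured gene, Tmem123, had 0.01 ± 0.21. At the edges of the cluster, Dync2h1 was past 2-fold lower, Dcun1d5 was below 0 and Tmem123 was near 0. Within it, Mmp13 and the bound of Mmp12 were past 2-fold higher. Whether their place in the cluster had a part was not tested.

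The AP-1 and TATA letters were also found in dim genes of the cluster. Mmp1, Mmp7 and Mmp20 held the AP-1 letters, at 84 and 242 bases before the start in Mmp1, 80 in Mmp7 and 96 in Mmp20, with TATA letters nearer the start in each. Their probes were at or under the detection limit in control siRNA cells, and those of Mmp1 and Mmp20 in Pla2g4c siRNA cells as well. Mmp8 and Mmp27 held no AP-1 letters in the window. The remaining members are spread over the genome, with Mmp9 on chromosome 3, Timp2 on 10, Mmp14 on 15, Mmp2 and Mmp15 on 19 and Timp1 on X.

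Most other family members were dim. Of 14 other metalloproteinase genes 13 had a probe, 3 were measured on both arrays, 2 in Pla2g4c siRNA cells only and 8 on neither. Mmp19 read 0.143 in Pla2g4c siRNA cells and 0.0972 in control siRNA cells, a difference of 0.56 ± 0.21. Mmp28, or epilysin, read 0.0476 in Pla2g4c siRNA cells and 0.0704 in control siRNA cells, a difference of -0.57 ± 0.23. Mmp24, a membrane-type enzyme, differed by 0.24 ± 0.24. Mmp11, or stromelysin-3, was at least 1.74-fold higher. Mmp16, Mmp17, Mmp21 and Mmp23 were among the 8 dim genes. The 3 measured genes had a median of 0.24, and 0 of them passed 2-fold.

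Among 8 further inhibitors and partners 4 were measured, with a median of 0.08, and 1, Lcn2, was at least 2-fold higher. Lcn2 encodes lipocalin-2, which binds Mmp9 and protects it from breakdown. It read 41.1 in Pla2g4c siRNA cells and 0.959 in control siRNA cells, a difference of 5.42 ± 0.20. Cd44, a cell surface receptor that can hold Mmp9, had 0.15 ± 0.20, the proprotein convertase Furin, which activates Mmp14, 0.02 ± 0.20, and Bsg, which encodes the inducer protein basigin, -0.13 ± 0.20. The remaining inhibitors Timp3, Timp4 and A2m were dim on both arrays, so of the inhibitor genes only Timp1 and Timp2 had a level.

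In the other proteolytic systems of the matrix 0 genes measured on both arrays passed 2-fold, and 1 gene with a bound did. Of 14 genes of plasminogen activation 8 were measured, 6 were above 0, 0 passed 2-fold and the median was 0.50. Plat, the tissue plasminogen activator, read 0.636 in Pla2g4c siRNA cells and 0.321 in control siRNA cells, just short of 2-fold at 0.99 ± 0.20. Plaur, the urokinase receptor, differed by 0.80 ± 0.23, while Plg, plasminogen itself, had -0.42 ± 0.20 and the inhibitor Serpinb2 -0.10 ± 0.20. Of 22 ADAM and ADAMTS genes 5 were measured, with a median of 0.22, and 0 of these passed 2-fold. Adamts4, which encodes an aggrecanase, had no spot well above background in control siRNA cells and was at least 4.91-fold higher, with 0.0648 in Pla2g4c siRNA cells against 0.00483 in control siRNA cells. It was named after its value was seen, like the other bounds of these lists. The measured genes included Adam9 at 0.34 ± 0.26, the sheddase Adam17 at 0.25 ± 0.20, Adamts7 at -0.11 ± 0.22 and Adam19 at -0.41 ± 0.37. Of 15 cathepsin and cystatin genes 7 were measured and 0 passed 2-fold, with a median of -0.24. In that list Ctsd had 0.16 ± 0.20 and the inhibitor Cstb 0.01 ± 0.20, while Cst3, encoding cystatin C, had -0.60 ± 0.20 and Ctsc -0.66 ± 0.20.

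The substrates showed no common direction. Of 26 matrix genes 13 were measured, with 7 above 0, 1 at least 2-fold higher and a median of 0.03. The 1 gene was Fn1, fibronectin, which read 1.04 in Pla2g4c siRNA cells and 0.435 in control siRNA cells (1.25 ± 0.22). Lamc1, a laminin chain, had 0.67 ± 0.21, Col18a1 -0.81 ± 0.20 and Tnc, tenascin-C, -0.83 ± 0.20.

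The regulators were mixed. Of 18 genes for AP-1, Ets and NF-kB factors of these promoters 13 were measured and 10 were above 0. Past 2-fold were 1 higher and 1 lower, and the median was 0.11. Etv4, the Ets family factor also called PEA3, read 0.344 in Pla2g4c siRNA cells and 0.154 in control siRNA cells (1.16 ± 0.21), and Ets1 differed by 0.86 ± 0.23. The AP-1 subunit Fos read 0.0792 in Pla2g4c siRNA cells and 0.192 in control siRNA cells (-1.28 ± 0.21), and Junb, another subunit, differed by -0.93 ± 0.20. The other measured AP-1 genes were above 0. Fosl1 had 0.79 ± 0.20, Jund 0.11 ± 0.20, Fosl2 0.10 ± 0.22 and Jun 0.07 ± 0.20. Among the NF-kB genes, Nfkb2 had 0.73 ± 0.20, Nfkbia 0.395 ± 0.20 and Rela 0.12 ± 0.21. Of 16 cytokine and growth factor genes 10 were measured, 2 at least 2-fold higher and 0 lower, with a median of 0.23. Tnf, tumour necrosis factor, read 1.70 in Pla2g4c siRNA cells and 0.271 in control siRNA cells (2.65 ± 0.20). Il1a, interleukin-1 alpha, read 2.02 in Pla2g4c siRNA cells and 0.954 in control siRNA cells (1.08 ± 0.20). Areg, an EGF receptor ligand, had -0.19 ± 0.20, and the receptor gene Egfr -0.40 ± 0.20. Over all 8 lists 5 genes measured on both arrays passed 2-fold higher and 1 lower. Of all 9026 named genes 2.91% passed 2-fold higher and 3.05% lower. The lists were chosen with earlier results of these data known, so nothing is read from their counts against these shares. Genes with a bound are not in the counts of the lists. Besides Adamts4, Mmp7 and Mmp11 they were Serpinf2, encoding a plasmin inhibitor (at least 1.81-fold higher), the collagen-degrading cathepsin Ctsk (at least 1.52-fold) and the cytokine Il1b (at least 1.96-fold). The medians of 5 lists were not stable in sign. That of the cathepsins and cystatins was 0.11 after quantile normalization, 0.03 after cyclic loess and 0.31 under spike-in scaling. After normexp the medians were -0.07 for the other metalloproteinases, -0.02 for the ADAM and ADAMTS genes and -0.10 for the matrix genes, the last also being -0.25 without the filter on dim probes. That of the inhibitors and partners was -0.01 with the brightest probe per gene.

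**Figure D5:**
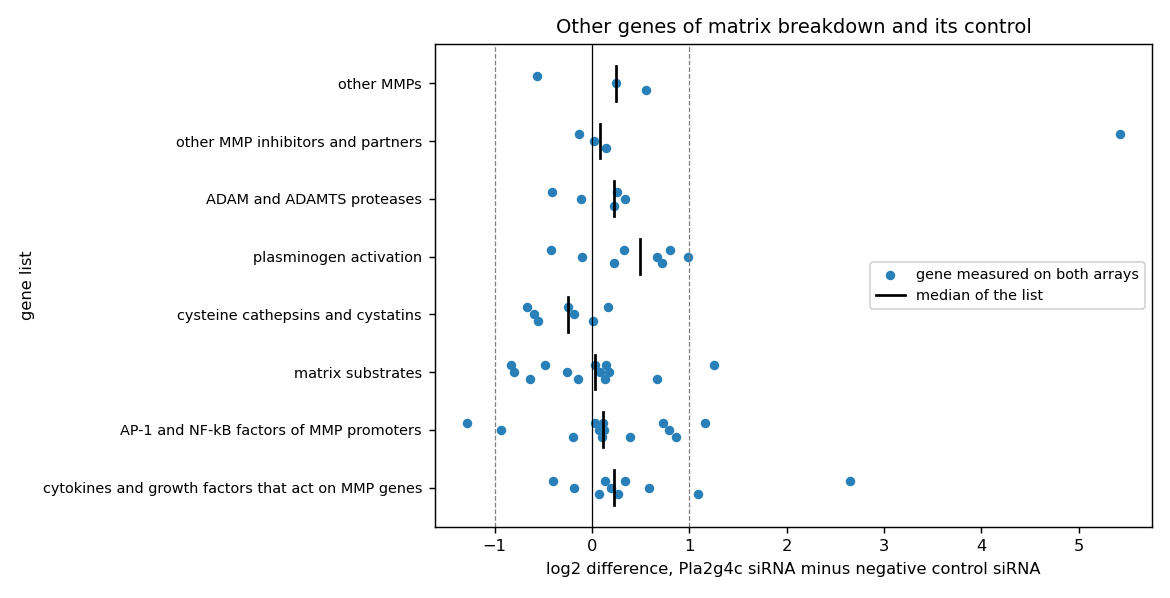
Log2 difference (Pla2g4c siRNA minus negative control siRNA, horizontal axis) of each gene measured on both arrays in 8 lists of matrix breakdown and its control; each point is a gene, the black bar is the median of the list and dashed lines mark 2-fold. Lcn2 (5.42) and Tnf (2.65) stand apart at the right, and the medians lie between -0.24 and 0.50.

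Several members are also made by macrophages, neutrophils and fibroblasts, so markers of such cells were read on the same arrays. Of 8 macrophage and monocyte markers 4 were measured, 0 passed 2-fold, and their summed relative signal over all probed markers was 0.758 in Pla2g4c siRNA cells and 0.905 in control siRNA cells, with Adgre1, Itgam, Mrc1 and Cd163 not well above background on either. Of 8 neutrophil markers 7 had a probe and 4 were measured, summing to 56.5 in Pla2g4c siRNA cells and 65.5 in control siRNA cells. A sum over probes follows its brightest probes, here those of S100a8 and S100a9, which epithelial cells can also make, and serves only to set the 2 arrays side by side. Elane and Csf3r were dim on both arrays. Of the 4 measured neutrophil markers only 1 was above 0. This was Camp, past 2-fold higher (1.64 ± 0.30) at a low signal of 0.0660 in Pla2g4c siRNA cells and 0.0213 in control siRNA cells. Cxcr2 had -0.86 ± 0.22, S100a8 -0.29 ± 0.20 and S100a9 -0.09 ± 0.20. The fibroblast sum was 0.436 in Pla2g4c siRNA cells and 0.394 in control siRNA cells. The lymphocyte sum was 0.0914 in Pla2g4c siRNA cells and 0.114 in control siRNA cells, and the endothelial sum 0.0735 in Pla2g4c siRNA cells and 0.0971 in control siRNA cells. In these 3 lists only 2 fibroblast markers, 1 lymphocyte marker and 1 endothelial marker were measured on both arrays, and 0 of them passed 2-fold. Of 10 mammary epithelial markers 8 were measured, with the basal keratins Krt5 and Krt17 lower (-1.72 ± 0.20 and -1.63 ± 0.20) and Epcam higher (1.03 ± 0.20). Krt8 was above 0 as well (0.86 ± 0.27). Tp63 had -0.13 ± 0.20, Krt19 -0.30 ± 0.21, Cdh1 -0.63 ± 0.20 and Krt14 -0.97 ± 0.20. Krt18 and Esr1 were dim on both arrays. The summed epithelial signal was 311.1 in Pla2g4c siRNA cells and 732.2 in control siRNA cells. This sum too follows its brightest probes, here those of Krt14, Krt5 and Krt17, and does not measure epithelial content. The part of the keratin shift in the differences of Mmp9, Mmp13 and Mmp12 was not tested. Fewer cells of a kind and less RNA per cell cannot be told apart in such samples.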

How the data were processed

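Per the labels, 1 Agilent rat array per group was hybridised with Cy3-labelled RNA of RMT-1 cells. The authors deposited scanner files of spot intensities on a linear scale. Agilent Feature Extraction made them, in version 10.10.1.1 per the file headers and in version 10.10 as the submitters' processing notes give it. Per the file headers, this processed signal is background-subtracted and detrended. The software's flags and its error estimate, a score here, were used as deposited. In a further deposited table the values equal the processed signal times a constant, which was 1.499 for the Pla2g4c siRNA array and 1.775 for the control array and is not explained in the sources used here.

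On the log2 scale, the 75th percentile of all gene spots of an array was subtracted from each processed signal. Outlier-flagged spots were left out (381 on the Pla2g4c siRNA array, 466 on the control array, 0 of the 54 spots of the members), spots of a probe and measured probes of a gene were averaged, and a probe was called measured if each of its spots was well above background. A bound was given where a gene was measured on 1 array and had no spot well above background on the other. That last condition was set after the spots of Mmp10 were seen. Probes were named through RefSeq accessions (18006 probes, 59.3%). The members and lists were chosen with earlier results of these data known. The text names all members, every other metalloproteinase gene with a probe, and the 2 highest and 2 lowest of each list with those past 2-fold. Genes beside the chromosome 8 cluster and single markers of other cell types were named after their values were seen.

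With 1 array per group there was no test, and precision is limited by the number of arrays. Alternatives were normexp background correction (offset 50, on the median spot signal, since the mean signal was not among the columns used), median, quantile, cyclic loess and spike-in scaling, the deposited values, no filter on dim probes, outlier spots kept, the brightest probe per gene and thresholds of 1.5-fold and 3-fold. Counting a probe as measured where any spot was well above background, and reading each probe of Mmp2 and Mmp15 by itself, were added after the data were seen. Scaling, averaging and the 2-fold call were tested on simulated arrays made from the control array's spots. The bounds, the alternatives and the motif search were not tested in this way. The software was limma 3.58.1 in R 4.3.3, and numpy 2.4.6, pandas 2.3.3 and matplotlib 3.10.9 in Python 3.11.15.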

Additional observations from a re-analysis of the deposited data

How the results depend on the processing

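Mmp9 and Mmp13 were at least 2-fold higher under each alternative, 3-fold included, and 0 members were lower. The members past 2-fold higher numbered 3 under spike-in scaling and with any spot well above background, 3 at 1.5-fold, and 4 without the filter on dim probes, which admits Mmp10 (1.46) and Mmp12 (3.48) with control spots near background. Of 171 single values under alternatives, medians of lists included, 142 moved by less than the software's error and 29 by more. Some of the 142 could not move, because rules on spots and probes leave a gene with 1 bright, unflagged probe unchanged. The tally is therefore not a measure of stability. Against 263 higher and 275 lower genes, the counts over all genes were 116 and 154 after normexp, 1186 and 68 under spike-in scaling, 539 and 765 without the filter on dim probes, 784 and 929 at 1.5-fold, and 85 and 65 at 3-fold. In the pathway lists, against 5 higher and 1 lower, they were 2 and 0 after normexp, 15 and 0 under spike-in scaling, 13 and 2 without the filter, 14 and 7 at 1.5-fold, and 2 and 0 at 3-fold. A stricter or looser fold admits fewer or more genes by construction, and spike-in scaling shifts all genes by a constant. Without the filter the counts run over 15159 named genes, dim ones included, against 9026 with it. The cause of the other moves was not tested. The share of genes above 0 was 49.0%, against 88.7% under spike-in scaling and 62.7% in the authors' deposited values. No paired analysis was possible because each group holds 1 array, and no array could be left out. Signal over background limits Mmp12, Mmp10 and the dim probes of Mmp2 and Mmp15.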
